A study of Mus musculus with 4 samples.

Results

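The 10 genes described here encode 6 methyltransferases that act on lysine 9 of histone H3 (H3K9), namely Suv39h1, Suv39h2, Setdb1, Setdb2, Ehmt1 and Ehmt2, the 3 heterochromatin protein 1 (HP1) genes Cbx1, Cbx3 and Cbx5, and the co-repressor gene Trim28. They were chosen by symbol, not by level, and all 10 were found among the 24319 gene entries used. Polyadenylated RNA had been sequenced from primary mouse bone marrow cells labelled mesenchymal stem cells, stromal progenitors of bone, fat and cartilage. The groups were cells labelled KDM4B KO under osteogenic induction, wild type cells under osteogenic induction, KDM4B KO cells in control culture and wild type cells in control culture, each after 4 days. KDM4B is a demethylase that removes methyl groups from H3K9, the mark that the enzymes described here write. Each group was 1 library, so no difference below has a replicate, a standard error or a p-value. No source used here gave the strain or age of the animals, the kind of knockout allele or the number of animals behind a library.

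Methylated H3K9 marks silent chromatin. SUV39H1 and SUV39H2 write the trimethyl mark at the repeats around centromeres, EHMT1 (GLP) and EHMT2 (G9a) form a complex that writes the dimethyl mark in euchromatin, and SETDB1 writes the trimethyl mark at endogenous retroviruses and other repressed loci. SETDB1 is brought to DNA by TRIM28 (KAP1), which binds the repressive domain of KRAB zinc finger proteins. SETDB2 is a less studied relative of SETDB1. The HP1 proteins, alpha from Cbx5, beta from Cbx1 and gamma from Cbx3, bind the methylated lysine through their chromodomain and in turn bring the SUV39H enzymes, so the mark and its readers sustain each other.

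Levels are in FPKM, the fragments of a library that map to a gene per kilobase of its transcript, relative to the library's mapped fragments. This unit takes account of transcript length, which allows levels to be compared between genes. Differences are log2 ratios after 1 was added to each FPKM, which makes the differences of low genes look smaller than they are. A gene was tested when it had at least 1 FPKM in one of both libraries, and it was past the size rule when FPKM + 1 differed by 2-fold or more between them. Kdm4b itself was at 4.26, 5.83, 4.30 and 4.60 FPKM in the KO induction, WT induction, KO control and WT control libraries, so the transcript was present in all 4. Both libraries labelled KO lay below both labelled WT, by log2 ratios of -0.08 in control medium and -0.38 under induction. In absolute size these did not exceed the median difference of all tested genes, 0.25 in control medium and 0.39 under induction. The KO label was therefore taken as given and not checked by the Kdm4b level. The induced library labelled WT stood apart from the other 3. Xist, the RNA of the inactive X chromosome, was at 0.0621 FPKM there and between 21.6 and 30.5 FPKM in the others, and the 4 Y-linked genes measured were at 4.79 to 39.4 FPKM there and at or below 0.0208 FPKM in the others. Sex therefore cannot be told apart from genotype under induction, or from induction in the libraries labelled WT. Macrophage markers were abundant beside stromal ones. The 15 macrophage markers summed to 20357, 14618, 18299.8 and 20390.3 FPKM, and the 15 stromal markers to 1443, 2495, 1287 and 1048 FPKM, in the same order of libraries. No marker of either list was at 0 in any library, and the part of these cells in the values below was not tested. In such a bulk sample, fewer cells of a type and less RNA per cell cannot be told apart.

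Levels of the 10 genes spanned about 2 orders of magnitude and kept nearly the same order in every library. Trim28 was at 72.6 FPKM in the KO induction library, 61.9 FPKM in the WT induction library, 70.4 FPKM in the KO control library and 78.4 FPKM in the WT control library. Cbx3 followed at 57.1, 69.4, 66.0 and 62.9 FPKM, and Ehmt2 at 42.2, 29.7, 38.2 and 48.3 FPKM, in the same order of libraries. Trim28 was the most abundant of the genes in 3 libraries, and Cbx3 in the induced library labelled WT. Cbx1 ranked next in every library, and Setdb1 came after it. Suv39h1, Ehmt1 and Cbx5 lay close together between 6.02 and 9.29 FPKM and exchanged places between libraries. Setdb2 and Suv39h2 were the lowest everywhere, and Suv39h2 was the only one of the genes under 1 FPKM in all 4 libraries. In RefSeq, Suv39h1 lies on chromosome X, Suv39h2 and Ehmt1 on chromosome 2, Setdb1 on 3, Setdb2 on 14, Ehmt2 on 17, Cbx1 on 11, Cbx3 on 6, Cbx5 on 15 and Trim28 on 7. The plot of levels by library shows the order of the genes.

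**Figure D1:**
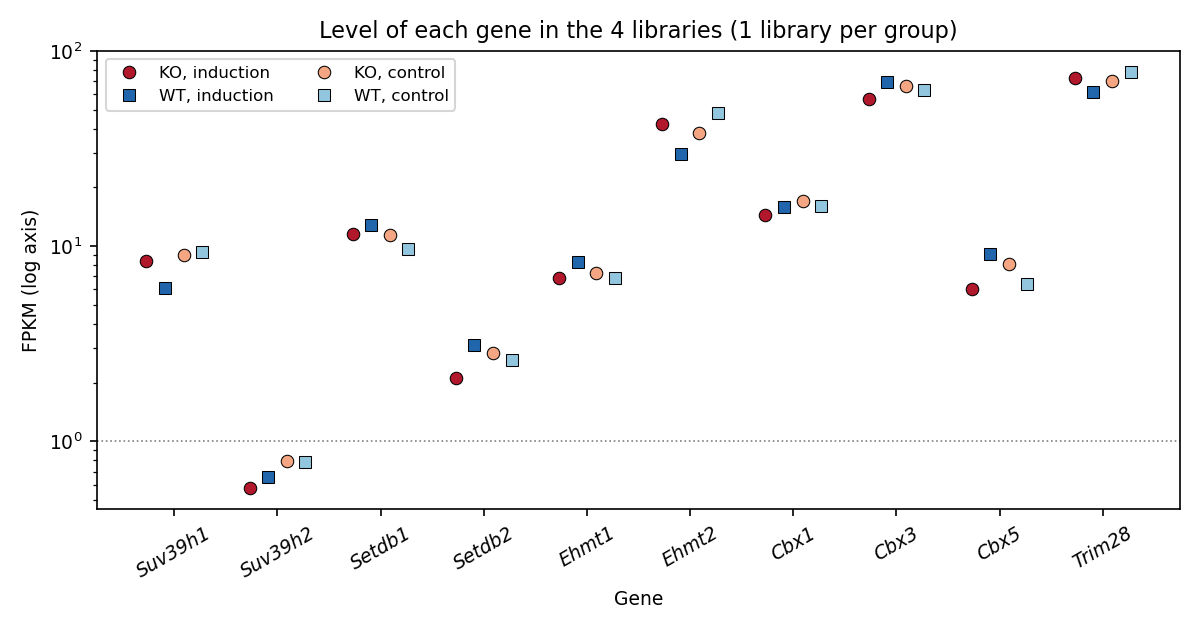
FPKM (log axis) of the 10 genes in the KO induction, WT induction, KO control and WT control libraries, 1 point per library, with a dotted line at 1 FPKM. The points of each gene lie close together beside the distance between genes, from Suv39h2 under 1 FPKM to Trim28 at 61.9 to 78.4 FPKM.

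None of the genes passed the size rule in any comparison. In control medium, 0 of 9 tested members differed by 2-fold between the libraries labelled KO and WT, beside 2.4% of 11845 genes. Under induction it was 0 of 9 beside 10.7% of 11936 genes, between induction and control in the libraries labelled WT 0 of 9 beside 15.2% of 12094 genes, and in those labelled KO 0 of 9 beside 2.61% of 11748 genes. At a 1.5-fold difference only Ehmt2 passed, in the WT induction library against the WT control library, where 37.5% of all tested genes did. The shares of all genes past 1.5-fold were 12.4% for KO against WT in control medium, 31.5% under induction and 11.6% for induction against control in the libraries labelled KO.

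Medians of the 9 tested members lay near those of all genes. The median log2 ratio of KO to WT was 0.07 in control medium, beside -0.02 for all tested genes, and -0.14 under induction, beside -0.02. For induction against control it was 0.14 in the libraries labelled WT, beside -0.03 for all genes, and -0.10 in those labelled KO, beside -0.04. Members went both ways in every comparison. Of the 9 tested members, 6 had ratios above 0 and 3 below 0 for KO against WT in control medium, and 3 above and 6 below under induction. Each comparison of KO with WT shares a library with each comparison of induction with control, so those ratios are not independent of each other. In absolute size the 10 genes had a median log2 difference of 0.26 between the KO and WT libraries under induction, where all tested genes had 0.39, and of 0.08 in control medium, where all had 0.25. These medians of the 10 genes included Suv39h2, which stayed under 1 FPKM and was not among the tested genes.

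**Figure D2:**
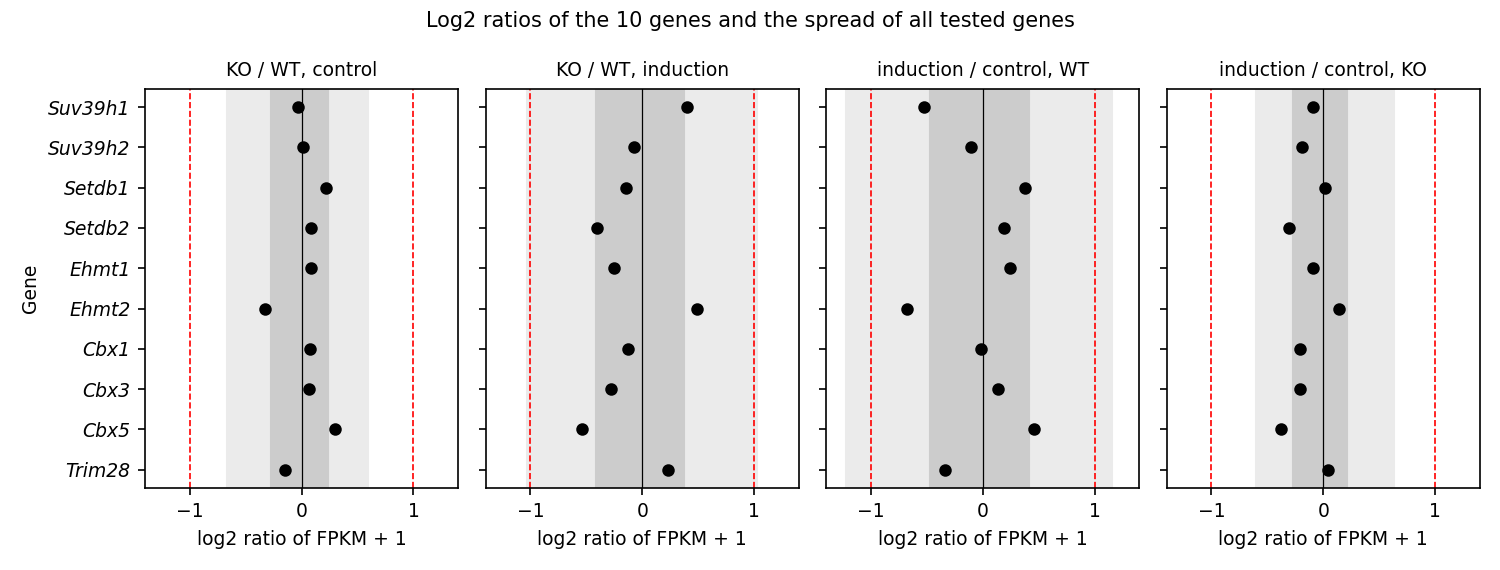
Log2 ratios of FPKM + 1 for the 10 genes in the 4 comparisons, with the middle 50% (dark grey) and the middle 90% (light grey) of all tested genes and the 2-fold rule as dashed lines. No gene reaches a dashed line, and most of the points lie within or near the middle 50% of all genes.

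Among the enzymes that write the trimethyl mark at pericentric repeats, Suv39h1 was the main transcript. It was measured at 8.39 FPKM in the KO induction library, 6.13 FPKM in the WT induction library, 9.02 FPKM in the KO control library and 9.29 FPKM in the WT control library. The induced library labelled WT was the lowest and the other 3 lay within 0.13 of each other on the log2 scale. The log2 ratio of KO to WT was 0.40 under induction and -0.04 in control medium, and that of induction to control was -0.53 in the libraries labelled WT and -0.10 in those labelled KO. With the induced library labelled KO set against the control library labelled WT, the ratio was -0.13. Suv39h1 lies on the X chromosome, and the library with the lowest level was the one with the lowest Xist. The same library also had the lowest cell cycle signal. The summed FPKM of 32 cell cycle genes was 615 in the KO induction library, 268 in the WT induction library, 715 in the KO control library and 730.03 in the WT control library. Under induction, 18 of 31 tested cell cycle genes were higher in the library labelled KO and 0 were lower, with a median log2 ratio of 1.12, beside 5.27% of all genes higher. The part of the X chromosome and of the cell cycle signal in the Suv39h1 values was not tested.

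The start region of Suv39h1 is shown because this gene departed most from the GC trend, described further on, under induction. It covers 250 bases before and 50 bases after the more upstream of 2 RefSeq starts (chrX:8074711-8075010, minus strand, build GRCm38.p6), with CG dinucleotides in capitals, the sites where DNA methylation occurs.
Suv39h1: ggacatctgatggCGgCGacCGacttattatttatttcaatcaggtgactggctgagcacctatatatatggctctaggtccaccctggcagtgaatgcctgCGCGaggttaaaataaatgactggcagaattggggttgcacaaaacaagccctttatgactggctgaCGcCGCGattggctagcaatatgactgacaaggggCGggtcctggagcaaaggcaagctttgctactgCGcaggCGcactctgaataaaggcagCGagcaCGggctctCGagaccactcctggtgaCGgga
It holds 15 CG dinucleotides, beside a median of 7 over 32851 RefSeq start regions of the same length.

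Suv39h2, the relative of Suv39h1 that is best known from testis and early embryos, was at 0.574, 0.658, 0.795 and 0.781 FPKM in the KO induction, WT induction, KO control and WT control libraries. It made up between 6.41% and 9.70% of the summed FPKM of the pair. No difference between libraries can be read from levels this low. It overlaps Dclre1c in RefSeq, and no source used here gave the use of the strand in counting.

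The G9a and GLP genes had ratios of opposite sign in all 4 comparisons as deposited. In each comparison the signs matched once the trend with transcript length was removed. With the GC trend removed, a step described further on, they stayed opposite except for induction against control in the libraries labelled KO. Ehmt2, which encodes G9a, was at 42.2 FPKM in the KO induction library, 29.7 FPKM in the WT induction library, 38.2 FPKM in the KO control library and 48.3 FPKM in the WT control library. Both libraries labelled KO lay between the induced and the control library labelled WT. The log2 ratio of KO to WT was 0.49 under induction and -0.33 in control medium, and that of induction to control was -0.68 in the libraries labelled WT, the largest of any member in any comparison, and 0.14 in those labelled KO. Of all tested genes, 30.5% had a difference at least as large as -0.68 in size in that comparison. Ehmt1, which encodes GLP, was at 6.84, 8.32, 7.33 and 6.86 FPKM in the same order of libraries. It was highest where Ehmt2 was lowest, with log2 ratios of KO to WT of -0.25 under induction and 0.08 in control medium. With the length trend removed, the Ehmt1 ratio of KO to WT was 0.15 under induction and -0.14 in control medium, beside 0.67 and -0.43 for Ehmt2. For induction against control it was then -0.09 in the libraries labelled WT and 0.16 in those labelled KO, beside -0.80 and 0.28 for Ehmt2. With the GC trend removed in its place, the Ehmt1 ratio of KO to WT was -0.28 under induction and 0.16 in control medium, beside 0.05 and -0.06 for Ehmt2. For induction against control it was 0.35 in the libraries labelled WT and -0.09 in those labelled KO, beside -0.22 and -0.16 for Ehmt2. The Ehmt2 level was 6.18, 3.58, 5.21 and 7.04 times the Ehmt1 level in the KO induction, WT induction, KO control and WT control libraries. Of all members Ehmt2 had the widest range over the 4 libraries, 0.68 on the log2 scale, and 0.33 without the induced library labelled WT.

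The start region of Ehmt2 is shown for this widest range and as an example of a CG-rich start (chr17:34898224-34898523, plus strand, build GRCm38.p6, the more upstream of 2 RefSeq starts), again with CG dinucleotides in capitals.
Ehmt2: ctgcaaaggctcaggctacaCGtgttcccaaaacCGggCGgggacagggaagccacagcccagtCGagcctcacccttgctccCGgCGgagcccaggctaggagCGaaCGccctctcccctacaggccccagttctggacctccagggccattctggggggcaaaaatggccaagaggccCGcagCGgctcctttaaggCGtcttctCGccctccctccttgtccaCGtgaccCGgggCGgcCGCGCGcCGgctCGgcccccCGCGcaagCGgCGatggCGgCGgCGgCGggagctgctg
It holds 28 CG dinucleotides. The most upstream start regions of all 10 members held between 15 and 34, all above the median of 7 over all start regions. The more downstream start regions held 37 for Suv39h1, 40 for Ehmt2, 32 for Cbx3 and 8 for Cbx5. The median counts every start of a gene, 32851 over 27025 genes, so it is not a median of most upstream starts.

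Over the 4 libraries, 3 genes out of 7239 with at least 5 FPKM in every library had the profiles closest to that of Ehmt2, measured as the Euclidean distance between log2(FPKM + 1) values centred on their mean. Ing4, at a distance of 0.014, was at 36.6, 25.4, 32.7 and 41.4 FPKM in the KO induction, WT induction, KO control and WT control libraries. Rpia lay at 8.20, 5.53, 7.36 and 9.36 FPKM and Brf1 at 15.6, 10.7, 13.8 and 17.8 FPKM, both at a distance of 0.016. Profiles over 4 libraries are short, and many genes can share one.

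Setdb1 was measured at 11.5 FPKM in the KO induction library, 12.9 FPKM in the WT induction library, 11.4 FPKM in the KO control library and 9.64 FPKM in the WT control library. The control library labelled WT was the lowest, with log2 ratios of KO to WT of 0.22 in control medium and -0.14 under induction. Setdb1 overlaps Cers2 in RefSeq, which was more abundant at 122.9 to 143.7 FPKM, so reads of either gene could be assigned to the other where strand was not used. Setdb2 was at 2.10, 3.12, 2.83 and 2.62 FPKM in the KO induction, WT induction, KO control and WT control libraries. Its ratio of KO to WT was -0.41 under induction and 0.08 in control medium. The Setdb1 level was between 3.68 and 5.49 times that of Setdb2.

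Trim28, the adaptor that recruits SETDB1, was 4.81 to 8.14 times as abundant as Setdb1. Its levels, given above, were highest in the control and lowest in the induced library labelled WT, the same order as for Ehmt2. The log2 ratio of KO to WT was 0.23 under induction and -0.15 in control medium, and that of induction to control was -0.34 in the libraries labelled WT and 0.04 in those labelled KO. With the GC trend removed, a step described below, all 4 of these ratios turned to the opposite sign and none exceeded 0.23 in size.

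Of the HP1 genes, Cbx3 supplied most of the transcripts. It made up 73.5% of the summed HP1 FPKM in the KO induction library, 73.4% in the WT induction library, 72.5% in the KO control library and 73.6% in the WT control library. Cbx1 held 16.9% to 18.9% and Cbx5 7.50% to 9.70%. The summed level was 77.6, 94.5, 91.1 and 85.5 FPKM in the same order of libraries. The make-up of the HP1 family differed little between libraries, while its sum was lowest in the KO induction library. Counting of Cbx3 is uncertain because RefSeq lists 6 named Cbx3 pseudogenes, none of them with an entry in the deposited tables.

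**Figure D3:**
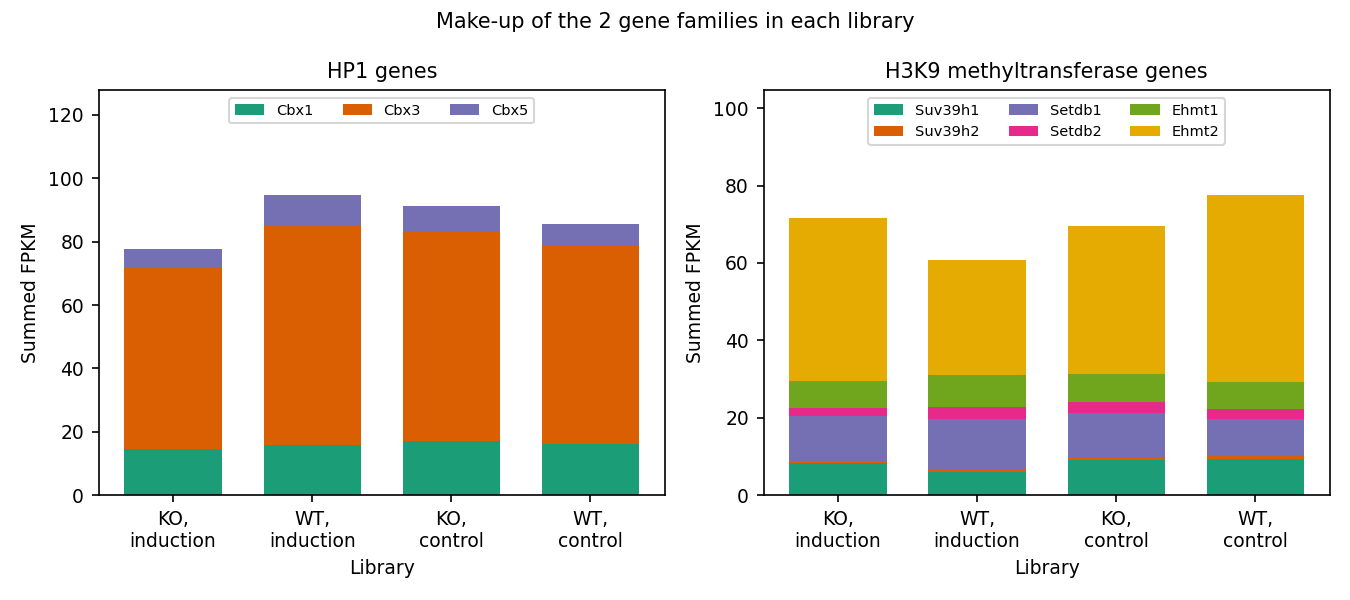
Summed FPKM of the 3 HP1 genes (left) and of the 6 methyltransferase genes (right) in each library, stacked by gene. Cbx3 fills 72.5% to 73.6% of each HP1 bar, and Ehmt2 fills from 48.9% (WT induction) to 62.3% (WT control) of each methyltransferase bar.

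Cbx1 had the narrowest spread of the HP1 genes. It was at 14.5 FPKM in the KO induction library, 15.9 FPKM in the WT induction library, 17.0 FPKM in the KO control library and 16.1 FPKM in the WT control library, so its highest value was 1.17 times its lowest. Cbx3, at the levels given above, was lowest in the KO induction and highest in the WT induction library, with log2 ratios of KO to WT of -0.28 under induction and 0.07 in control medium. With the GC trend removed, the Cbx3 ratios turned sign in all 4 comparisons, to 0.17 for KO against WT under induction, -0.19 in control medium, and -0.20 and 0.11 for induction against control in the libraries labelled WT and KO. Cbx5, which encodes HP1 alpha, varied most. It was at 6.02 FPKM in the KO induction library, 9.17 FPKM in the WT induction library, 8.11 FPKM in the KO control library and 6.41 FPKM in the WT control library. The induced KO and the control WT library were both low, and the other libraries were both high. The log2 ratio of KO to WT was -0.53 under induction, the largest of the members in that comparison, and 0.30 in control medium. Induction against control gave 0.46 in the libraries labelled WT and -0.38 in those labelled KO. The induced KO library against the control WT library gave -0.08.

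The start region of Cbx5 is printed because its profile ran against that of Ehmt2 (chr15:103239803-103240102, minus strand, build GRCm38.p6, the more upstream of 2 RefSeq starts), with CG dinucleotides in capitals.
Cbx5: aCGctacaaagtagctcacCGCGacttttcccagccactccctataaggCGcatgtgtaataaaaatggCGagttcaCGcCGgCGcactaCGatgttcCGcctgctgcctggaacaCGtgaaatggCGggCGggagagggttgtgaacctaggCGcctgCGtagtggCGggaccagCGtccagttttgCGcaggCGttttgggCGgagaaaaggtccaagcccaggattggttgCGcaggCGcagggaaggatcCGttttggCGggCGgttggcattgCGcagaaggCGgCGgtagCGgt
It holds 29 CG dinucleotides, about as many as that of Ehmt2. An E2F-type motif, spelled exactly TTTCCCGC or TTTGGCGC, was searched on both strands. It was found in 1 of the 14 start regions of the members and in 1.56% of all start regions. The 1 was the more upstream start region of Cbx3, with TTTGGCGC beginning 168 bases before the start. Other spellings of the motif were not searched. Hnrnpa1, the neighbour whose start lies within 1 kb of Cbx5, was at 24.2, 20.8, 24.0 and 31.7 FPKM in the KO induction, WT induction, KO control and WT control libraries. Hnrnpa2b1, within 1 kb of Cbx3, was at 166.8, 167.1, 209.3 and 199.8 FPKM. Chmp2a, within 1 kb of Trim28, was at 144.0, 78.7, 104.2 and 156.9 FPKM in the same order of libraries. The neighbours were looked up after the levels of the 10 genes had been seen. Chmp2a had the same order of libraries as Trim28, while Hnrnpa1 and Hnrnpa2b1 did not follow that of their HP1 neighbours.

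Differences between libraries ran with the GC content of the transcript, over all genes and over the members alike. For KO against WT under induction, Spearman's rho between log2 ratio and GC content was 0.43 over 11857 genes and 0.77 over the 10 members. For KO against WT in control medium it was -0.44 over 11771 genes and -0.53 over the members. Induction against control gave -0.36 and -0.55 in the libraries labelled WT, and 0.48 and 0.87 in those labelled KO. These are descriptions, since genes of one library share its preparation and depth. Ehmt2 and Trim28 had the highest GC content of the members, 60.8% and 59.6%, while Cbx3, Cbx5, Setdb2 and Suv39h2 lay between 41.1% and 43.0%. For transcript length, rho of the KO to WT ratio was -0.46 over all genes and -0.16 over the members under induction, and 0.55 and 0.42 in control medium. For induction against control it was 0.46 over all genes and 0.44 over the members in the libraries labelled WT, but -0.44 and 0.19 in those labelled KO, where the members had the opposite sign.

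**Figure D4:**
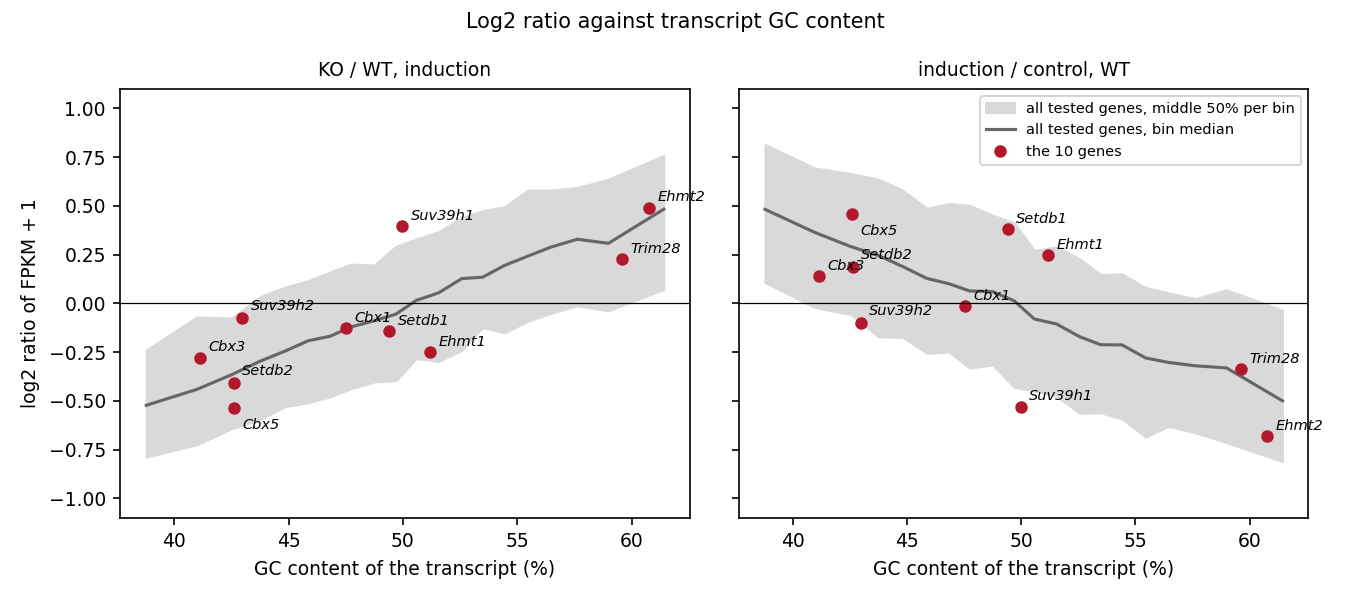
Log2 ratio of FPKM + 1 against transcript GC content for KO against WT under induction (left) and induction against control in the libraries labelled WT (right). The line and band are the median and middle 50% of all tested genes in 20 bins of GC content. Ehmt2 and Trim28 at the GC-rich end lie near the line, and Suv39h1 lies above it on the left and below it on the right.

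After subtraction of the median ratio of genes of like GC content, the Ehmt2 ratio of KO to WT under induction was 0.05, against 0.49 before, and that of Cbx5 was -0.27, against -0.53 before. Suv39h1 kept 0.41, against 0.40 before, and was then the largest in size of the 10. In control medium the corrected ratios were -0.06 for Ehmt2, 0.11 for Cbx5 and -0.02 for Suv39h1. For induction against control in the libraries labelled WT, they were -0.22 for Ehmt2, 0.20 for Cbx5 and -0.45 for Suv39h1. Subtraction of the length trend in its place left 0.67 for Ehmt2, -0.03 for Cbx5 and 0.44 for Suv39h1 for KO against WT under induction.

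Partner genes of the pathway, 31 in number, comprised the HUSH complex, DNA methyltransferases, H4K20 methyltransferases, replication-coupled chromatin factors and other related genes. Prdm2, Prdm16 and Mecom were among the last of these. In control medium 0 of 27 tested partners passed the size rule for KO against WT, beside 2.4% of all genes. The median log2 ratio was 0.22, beside -0.02 for all genes. The trends with transcript length and GC content were not removed for the partners. Under induction 3 were higher and 1 was lower, with a median of -0.15. The background was 5.27% of genes higher and 5.4% lower. Uhrf1, which reads H3K9 methylation and hemimethylated DNA behind the replication fork, was at 9.82 FPKM in the KO induction library, 2.31 FPKM in the WT induction library, 11.8 FPKM in the KO control library and 11.7 FPKM in the WT control library, a log2 ratio of KO to WT of 1.71 under induction. Incenp, a chromosomal passenger protein that binds HP1, had a ratio of 1.38, and Chaf1b, a subunit of the chromatin assembly factor CAF-1, of 1.03. All of them were lowest in the induced library labelled WT, in which the summed cell cycle level was also lowest, and the part of that level in their ratios was not tested. Atf7ip, the cofactor that stabilises SETDB1, went the other way, at 3.32, 8.57, 4.31 and 3.36 FPKM in the KO induction, WT induction, KO control and WT control libraries, a ratio of -1.15 under induction.

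For induction against control in the libraries labelled WT, 2 of 27 tested partners were higher and 4 lower, beside 7.22% and 7.95% of all genes. The higher ones were Adnp (log2 ratio 1.58), a zinc finger protein that binds HP1, and Atf7ip (1.14). Adnp was low, at 1.62, 3.31, 1.48 and 0.439 FPKM in the KO induction, WT induction, KO control and WT control libraries. Its ratios to the WT control library therefore rest on a value under 1 FPKM. The lower ones were Uhrf1 (-1.94), Incenp (-1.55), Chaf1b (-1.44) and Chaf1a (-1.18), the large CAF-1 subunit. In the libraries labelled KO, 0 of 27 passed, beside 2.61% of all genes. The largest ratios in size were those of Dnmt3a (-0.71), a de novo DNA methyltransferase, Smarcad1 (-0.59) and Hells (-0.57), both chromatin remodellers. Among partners in control medium, the largest ratios of KO to WT were those of Adnp (0.79, from the same low value), Hells (0.64) and Smarcad1 (0.59). The maintenance DNA methyltransferase gene Dnmt1, picked after its values had been seen, was at 16.7, 8.85, 20.1 and 16.7 FPKM in the KO induction, WT induction, KO control and WT control libraries, a ratio of 0.84 under induction, short of the rule.

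The opposing enzymes, H3K9 demethylases, also had 0 of 10 tested genes past the rule in each comparison. Their median log2 ratio of KO to WT was -0.32 under induction, beside -0.02 for all genes, with all 10 tested demethylase genes below 0. In control medium it was 0.26, beside -0.02 for all genes, with 9 of 10 above 0. The exception was Kdm4b (-0.08), which is itself part of this list. The trends with transcript length and GC content were not removed for this list. No test of the difference between these lists and the 10 genes was possible with 1 library per group.

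**Figure D5:**
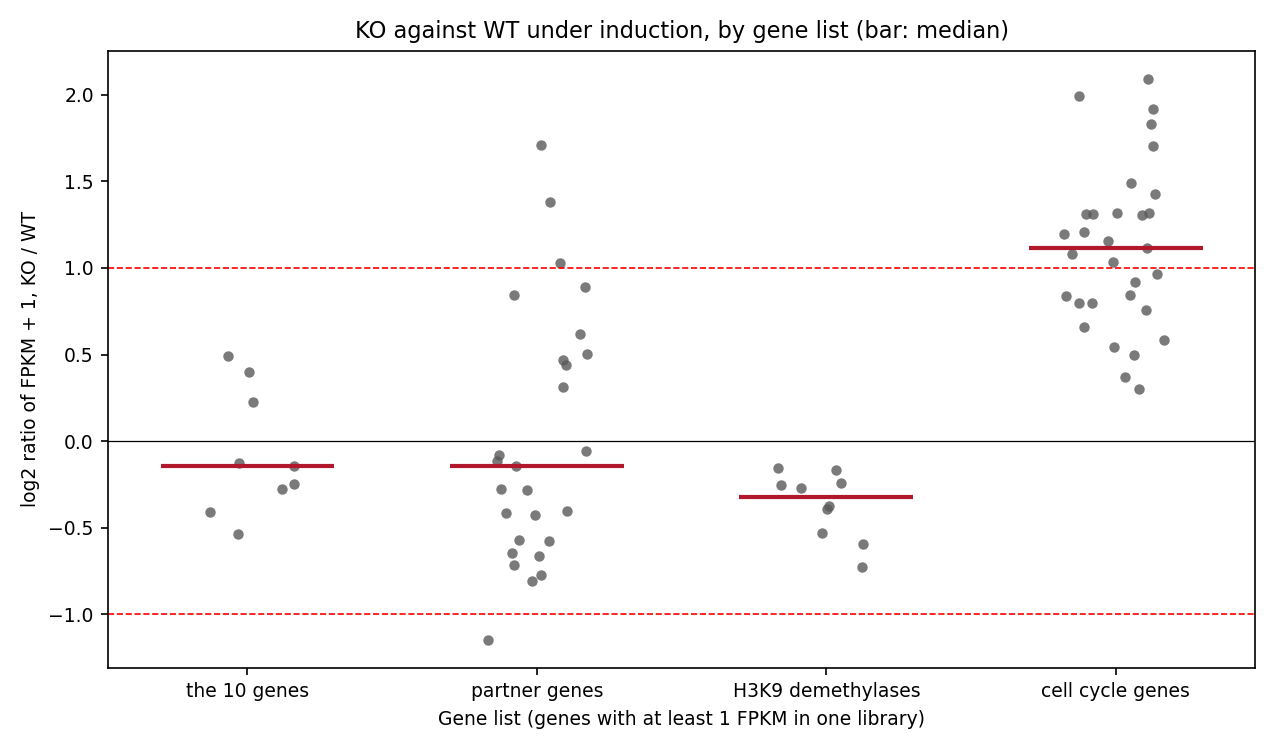
Log2 ratios of FPKM + 1 of KO to WT under induction for the tested genes of 4 lists, 1 point per gene, with the median as a bar and the 2-fold rule as dashed lines. The 9 tested members and the 10 H3K9 demethylases stay between the dashed lines, 4 partner genes lie outside them, and 18 of the cell cycle genes lie above.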

How the data were processed

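Expression was measured in 4 libraries, 1 for each combination of genotype label and medium. The deposited values were FPKM, per the file headers, in a table for each medium. The sheet name of the control table read OI, the label of the induced samples. Its columns were assigned by their headers, which read con. The authors ran TopHat and Cufflinks on genome build mm9, per the submitters' processing notes. Versions, annotation, filters and use of the strand are not given in the sources used here. Whether both tables were normalized together was not given either, so induction against control sets separate tables side by side. Of 24346 entries per table, 27 with a date in place of a symbol were left out.

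Read counts are not used here, so absolute depth is unknown. From the most frequent ratio among values under 0.15 FPKM, depth relative to the WT control library was estimated at 0.807 to 1.09. Log2 ratios of FPKM + 1 were computed over all genes with Python 3.11.15, pandas 2.3.3 and scipy 1.17.1. The code for the calls and trend removal was run on simulated data. The changes planted there were larger than any difference of the members, so that run does not show how accurate the members' ratios are. With 1 library per group there was no test. Length and GC content came from the longest protein-coding transcript of a symbol in GENCODE M21, and each trend was removed as the median ratio in 50 bins. Start regions came from RefSeq on GRCm38.p6 and were matched by symbol for all 10 genes.

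The members, lists and naming rule were chosen with earlier results of these data known. The naming rule took the 10 members, Kdm4b, partner genes that differed by 2-fold or, failing 3 of those, the 3 most different, and the 3 genes closest in profile to the member of widest range. Alternatives were other pseudocounts, filters, scalings, a 1.5-fold rule, removal of the length trend and another comparator. Removal of the GC trend was added after the data had been seen.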

Additional observations from a re-analysis of the deposited data

Results flagged for a closer look

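The difference between the libraries labelled KO and WT had opposite directions in the 2 media for 2 members, counting ratios of at least 1.2-fold in each medium. The share of all tested genes that met the same rule was not counted, so the count has no background beside it. Over all tested genes, Spearman's rho of the KO to WT ratio with GC content also differed in sign. It was -0.44 in control medium and 0.43 under induction. For Ehmt2 the log2 ratio of KO to WT was 0.49 under induction and -0.33 in control medium, so that the ratio under induction exceeded that in control medium by 0.82. For Cbx5 it was -0.53 under induction and 0.30 in control medium, a difference of -0.83. With 1 library per group these differences were not tested. With the GC trend removed, a step added after the data had been seen, the ratios were 0.05 and -0.06 for Ehmt2 and -0.27 and 0.11 for Cbx5, under induction and in control medium. With the length trend removed, they were 0.67 and -0.43 for Ehmt2 and -0.03 and 0.05 for Cbx5.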

How the results depend on the processing

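No paired analysis was possible because each group held 1 library. The count of members past the size rule was 0 in all 4 comparisons under every alternative, except that the 1.5-fold rule gave 1, Ehmt2, for induction against control in the libraries labelled WT. Scaling to equal summed FPKM without small RNA genes and Rn45s moved the median log2 ratio of the members to 0.29 for KO against WT in control medium, -0.38 for KO against WT under induction, 0.41 for induction against control in the libraries labelled WT and -0.26 in those labelled KO. It moved the median of all genes by 0.21, -0.22, 0.28 and -0.16 in the same order. Relative to all genes the medians of the members were then 0.10, -0.13, 0.17 and -0.06, beside 0.09, -0.12, 0.17 and -0.06 as deposited. Removal of the length trend gave 0.066 for KO against WT under induction and -0.084 for induction against control in the libraries labelled WT, and removal of the GC trend gave -0.038 for the last of these. Of the 40 ratios of single members, 14 turned sign when the GC trend was removed, 9 when the length trend was removed, 8 with equal sums, 1 with median-ratio scaling and 0 with another pseudocount. With the control library labelled WT as comparator of the induced library labelled KO, 6 of 20 turned sign. The unknown depth limits Suv39h2 most, at under 1 FPKM.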
